A study of Mus musculus with 12 samples.

Results

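The TSC22 domain family comprises 4 mouse genes, Tsc22d1, Tsc22d2, Tsc22d3 and Tsc22d4, whose RNA was followed in CD8+ T cells that were kept in collagen gels, kept in media or lysed fresh. The genes were selected by symbol and are all of the symbols with the TSC22 name among the 55291 in the deposited count table. The family was proposed with measured levels of these libraries in view, so the values of its members in the groups are a description and carry no test.

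Bulk RNA sequencing was run on 12 libraries of CD8+ T cells taken from spleen and lymph nodes of male mice, all of the genotype WT. The rat tail collagen, bovine collagen and media groups had 3 libraries each and shared the first 3 days in vitro, 2 days on plate-bound anti-CD3 with soluble CD28 followed by 1 day in rmIL-2. These cells then spent 24 h in a gel of rat tail collagen or bovine collagen at 2 mg/mL, or in media, and were lysed on day 4. The naive group (3 libraries) was lysed at once on day 0 without activation, so it differs from the other groups in activation, time in culture and handling alike. The labels give 3 per group and do not say whether equal replicate numbers mark the same mouse, so that p-values measure the spread between these libraries, which may be technical in part.

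TSC22 proteins share a short conserved stretch, the TSC box, followed by a leucine zipper through which they form dimers. Tsc22d3 encodes GILZ, a glucocorticoid-induced protein that binds NF-kappaB, AP-1 and Ras pathway proteins and is also a target of FOXO factors in lymphocytes. Tsc22d1 was found as a gene induced by TGF-beta, and the long forms of TSC22D1, TSC22D2 and TSC22D4 bind the pseudokinase NRBP1 and act with WNK kinases in the response of cells to changes in volume and osmolarity.

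The conserved stretch is what makes these genes a family and is also where their reads resemble each other most, so it is shown here for each member from GENCODE M21 transcripts on GRCm38. Each sequence runs 5′ to 3′ on the coding strand over 150 bases (50 codons) and joins 2 coding exons, and capitals mark the 85 bases that are the same in all 4 members.
Tsc22d1: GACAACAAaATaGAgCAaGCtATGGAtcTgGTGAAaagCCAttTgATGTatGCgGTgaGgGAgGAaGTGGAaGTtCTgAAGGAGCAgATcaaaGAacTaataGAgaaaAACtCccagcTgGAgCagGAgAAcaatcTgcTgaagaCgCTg
Tsc22d2: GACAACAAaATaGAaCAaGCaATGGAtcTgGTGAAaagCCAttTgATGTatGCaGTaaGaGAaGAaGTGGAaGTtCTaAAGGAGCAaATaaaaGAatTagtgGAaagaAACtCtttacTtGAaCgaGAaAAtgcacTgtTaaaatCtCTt
Tsc22d3: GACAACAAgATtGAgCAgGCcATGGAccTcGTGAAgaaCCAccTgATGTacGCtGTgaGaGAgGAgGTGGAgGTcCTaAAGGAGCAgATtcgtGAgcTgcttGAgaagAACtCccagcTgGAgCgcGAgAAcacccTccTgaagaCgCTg
Tsc22d4: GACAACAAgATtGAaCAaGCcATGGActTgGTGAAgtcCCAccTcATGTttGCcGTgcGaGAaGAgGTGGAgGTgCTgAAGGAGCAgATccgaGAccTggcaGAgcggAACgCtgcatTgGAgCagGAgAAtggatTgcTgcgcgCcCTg

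Of the 50 codons, 38 encode the same residue in every member, and pairs of members share 78% (Tsc22d3 and Tsc22d4) to 90% (Tsc22d1 and Tsc22d3) of residues. At the base level pairs share 66.7% to 79.3%, and the longest run that any pair has in common is 32 bases, between Tsc22d1 and Tsc22d2. The stretch lies near the end of each protein, at codons 985 to 1034 of 1077 in the Tsc22d1 form shown, 676 to 725 of 769 in Tsc22d2, 115 to 164 of 201 in Tsc22d3 and 311 to 360 of 387 in Tsc22d4. On GRCm38 it occupies chr14:76505274-76506542 (+) in Tsc22d1, chr3:58459359-58460133 (+) in Tsc22d2, chrX:140540982-140542128 (-) in Tsc22d3 and chr5:137758709-137759192 (+) in Tsc22d4, introns included. A search of all annotated transcripts found no 50-base stretch of Tsc22d1 or Tsc22d2 in another gene, while 0.456% of such stretches of Tsc22d3 and 0.133% of those of Tsc22d4 occur elsewhere.

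The genes themselves lie on 4 chromosomes and overlap no other annotated gene. Tsc22d1 spans chr14:76414961-76507765 on the plus strand, Tsc22d2 chr3:58414715-58466783 on the plus strand, Tsc22d3 chrX:140539528-140600659 on the minus strand and Tsc22d4 chr5:137745730-137768450 on the plus strand. Complete coding sequences in the annotation encode proteins of 82 to 1077 residues for Tsc22d1, 745 to 769 for Tsc22d2, 113 to 201 for Tsc22d3 and 149 to 509 for Tsc22d4. The counts were made per gene symbol, so long and short forms of a member were not told apart.

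Totals ran from 28483064 to 53138362 counts per library, and members had from 310 counts (Tsc22d1 in bovine collagen 2) to 19502 counts (Tsc22d3 in naive 3). Ribosomal RNA took 5.03% to 13.2% of counts in rat tail collagen and 5.50% to 11.9% in bovine collagen, against 4.45% to 4.72% in media and 3.96% to 5.67% in naive cells, with rat tail collagen 1 and 3 and bovine collagen 2 the highest (the rRNA-rich libraries). All 7 markers of CD8 T cells were present in each group, with summed levels of 2008 to 2244 CPM in rat tail collagen, 2679 to 2924 in bovine collagen, 2633 to 2960 in media and 3469.6 to 4090.3 in naive cells. The 6 myeloid markers summed to 17.5 to 24.7 CPM in rat tail collagen, 9.63 to 10.4 in bovine collagen, 9.11 to 9.94 in media and 34.4 to 125.7 in naive cells. In rat tail collagen this sum was mostly Cd68 (18.8 CPM), while Lyz2 (0.00952 CPM) and Csf1r (0.0112 CPM) were near 0. Markers of CD4 T cells summed to 59.4 to 70.8 CPM in rat tail collagen against 25.1 to 37.7 in media. This sum was mostly Zbtb7b (53.8 CPM in rat tail collagen, 26.0 in media) with some Foxp3, while Cd4 itself stood at 2.40 CPM for rat tail collagen, against 2.87 for media. Markers of NK cells summed to 8.14 to 10.3 CPM in rat tail collagen, nearly all of it Klrb1c. They summed to 0.229 to 1.34 CPM in bovine collagen, 0.449 to 0.898 in media and 14.4 to 30.6 in naive cells. In naive cells the sum held Ncr1 (7.87 CPM) and Klra8 (5.06 CPM) beside Klrb1c (7.46 CPM). The nuclear RNA Malat1 took 1.11% to 1.47% of counts in rat tail collagen, 0.195% to 0.276% in bovine collagen, 0.179% to 0.295% in media and 0.678% to 0.857% in naive cells. The part of these differences in the results was not tested.

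Tsc22d3 was the member with the widest range, and its RNA was far lower in every group of activated cells than in naive cells. In CPM, the count per library size after TMM scaling, it stood at 26.2, 26.97 and 20.995 in rat tail collagen and at 46.3, 45.9 and 55.6 in bovine collagen. It stood at 31.3, 25.8 and 27.8 CPM in media and at 334, 316 and 470.3 in naive cells. The lowest naive library was thus above the highest of the other 9, bovine collagen lay above media and rat tail collagen without overlap, and the ranges of rat tail collagen and media overlapped. Means were 24.7 ± 3.25 CPM in rat tail collagen, 49.2 ± 5.48 in bovine collagen, 28.3 ± 2.79 in media and 373 ± 84.4 in naive cells (SD, n = 3 each). Set in order the levels run naive, bovine collagen, media and rat tail collagen, and the last 2 neighbours did not differ beyond their spread.

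**Figure D1:**
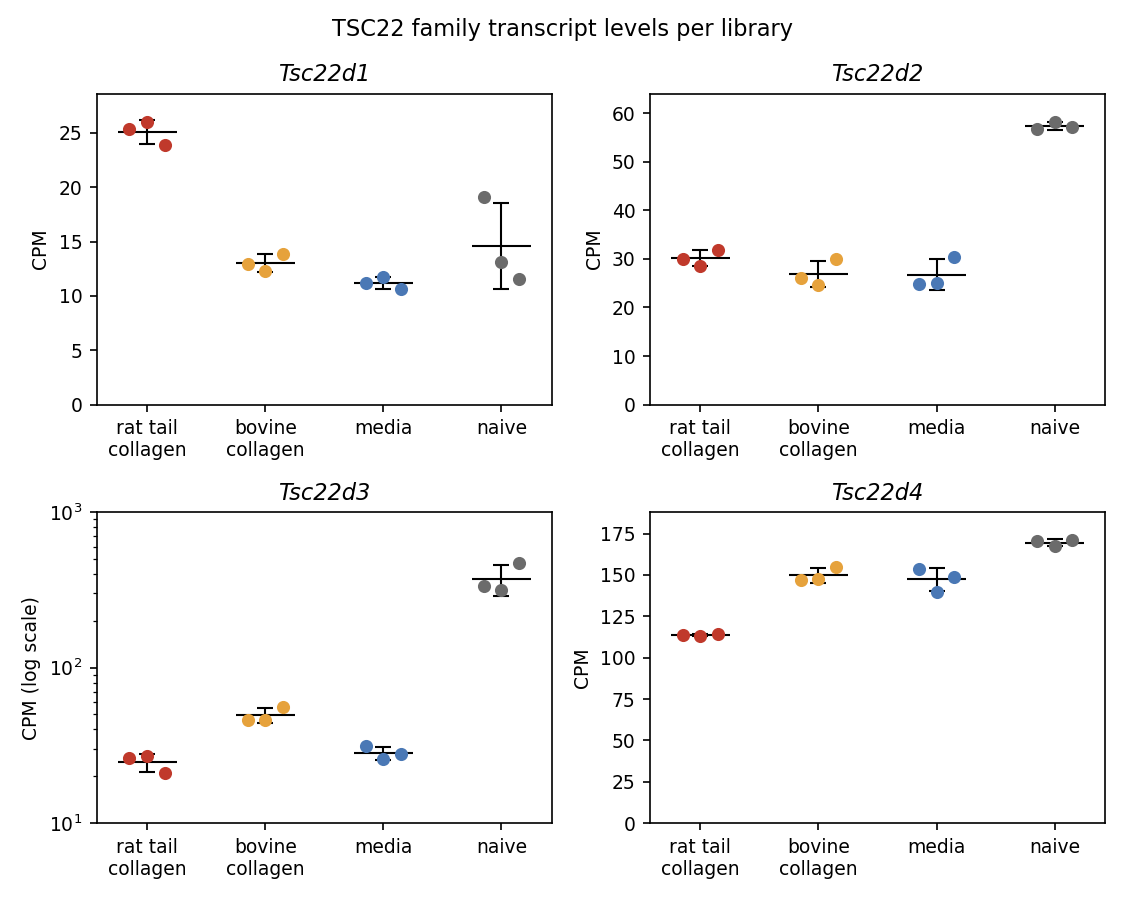
Level of each TSC22 member in every library in CPM (linear axes from 0, except Tsc22d3 on a log axis), with rat tail collagen, bovine collagen, media and naive libraries from left to right, points for libraries and black bars for the mean ± SD of 3. Tsc22d3 and Tsc22d2 are highest in naive cells, Tsc22d1 is highest in rat tail collagen at 23.9 to 26.0 CPM, and Tsc22d4 is lowest there at 113 to 114 CPM.

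As log2 fold changes from the edgeR fit across all genes, Tsc22d3 differed by -3.66 (SE 0.158) in media against naive, 12.6-fold lower, and by -3.91 (SE 0.187) in rat tail collagen against naive, 15.03-fold lower. Both comparisons use the same naive libraries. The log2 fold change was 0.80 (SE 0.112) in bovine collagen against media, 1.74-fold higher, and -0.20 (SE 0.113) in rat tail collagen against media. Between the gels it was -1.0 (SE 0.113), rat tail under bovine collagen. Without rat tail collagen 1 and 3 and bovine collagen 2 the values were 0.84 for bovine collagen against media, -0.07 for rat tail collagen against media and -0.91 between the gels, and without rat tail collagen 3 alone the value against media was -0.09. These are levels in bulk RNA, in which fewer cells with the transcript and less of it per cell cannot be told apart.

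Tsc22d1, the TGF-beta-induced founder of the family, was the member that stood higher in rat tail collagen than in any other group. It had 25.3, 26.0 and 23.9 CPM in rat tail collagen and 12.9, 12.3 and 13.9 in bovine collagen. Media libraries had 11.2, 11.7 and 10.6 CPM and naive libraries 19.1, 13.1 and 11.6. Every rat tail library was above all of the other 9, bovine collagen lay above media by a narrow margin, and the naive libraries overlapped with both of those groups. The means were 25.1 ± 1.09 CPM in rat tail collagen, 13.0 ± 0.796 in bovine collagen, 11.2 ± 0.536 in media and 14.6 ± 3.97 in naive cells (SD, n = 3 each).

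Its log2 fold change was 1.16 (SE 0.0826) in rat tail collagen against media, a 2.23-fold higher level, and 0.94 (SE 0.0830) against bovine collagen. In bovine collagen against media the value was 0.22 (SE 0.0839). Against naive cells it was 0.79 (SE 0.168) for rat tail collagen and -0.33 (SE 0.177) for media. The naive library with the highest Tsc22d1 (replicate 1) also had the highest sum of myeloid markers, 125.7 CPM against 46.2 and 34.4 in the other naive libraries. Without it the log2 fold changes against naive cells were 1.01 for rat tail collagen and -0.11 for media. Without naive 3, the lowest of the naive libraries, they were 0.63 for rat tail collagen and -0.49 for media.

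Tsc22d4, which encodes a long TSC22 protein that binds NRBP1, was lower in rat tail collagen than in the other groups by a small margin. Its levels were 114, 113 and 114 CPM in rat tail collagen and 147, 148 and 155 CPM in bovine collagen. Media libraries held 154, 139.7 and 149 CPM and naive libraries 170.5, 167 and 171 CPM. The rat tail libraries were below all others, the bovine collagen and media libraries overlapped, and the naive libraries were above all others. Means were 114 ± 0.515 CPM in rat tail collagen, 149.7 ± 4.42 in bovine collagen, 147 ± 7.10 in media and 169.6 ± 1.96 in naive cells (SD, n = 3 each).

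The log2 fold change of Tsc22d4 was -0.39 (SE 0.0619) in rat tail collagen against media, 1.31-fold lower, and -0.41 (SE 0.0620) against bovine collagen. In bovine collagen against media it was 0.02 (SE 0.0618), with a 95% interval of -0.10 to 0.14. Against naive cells it was -0.57 (SE 0.0569) for rat tail collagen and -0.14 (SE 0.0680) for media. With libraries scaled by their totals alone, the value between the gels was -0.26 in place of -0.41.

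Tsc22d2, another binding partner of the NRBP1 and WNK system in its long form, was lower in the activated cells than in naive cells. It had 29.99, 28.6 and 31.9 CPM in rat tail collagen, 26.1, 24.7 and 29.9 in bovine collagen, 24.8, 25.01 and 30.4 in media and 56.6, 58.2 and 57.1 in naive cells. The 3 groups of day 4 overlapped with each other, and all naive libraries were above them. The means were 30.2 ± 1.64 CPM in rat tail collagen, 26.9 ± 2.72 in bovine collagen, 26.7 ± 3.19 in media and 57.3 ± 0.803 in naive cells (SD, n = 3 each). Its log2 fold change was -1.04 (SE 0.0906) in media against naive, 2.05-fold lower, and -0.92 (SE 0.0661) in rat tail collagen against naive. Among the groups of day 4 the values were 0.16 (SE 0.1004) for rat tail collagen and 0.01 (SE 0.101) for bovine collagen, both against the same media libraries.

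**Figure D2:**
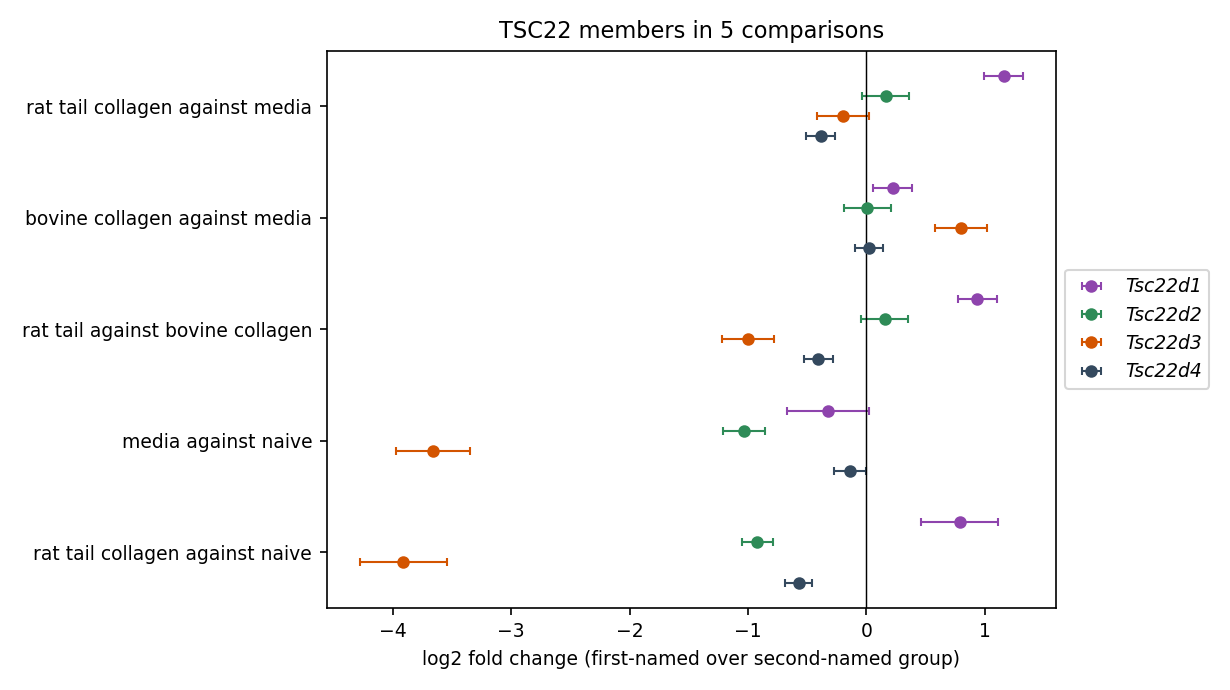
Log2 fold change of each TSC22 member in 5 comparisons (first-named over second-named group), with points for the edgeR estimate and bars for its 95% interval. Tsc22d3 lies at -3.66 and -3.91 in the comparisons with naive cells, and Tsc22d1 at 1.16 when rat tail collagen is set against media and 0.94 when it is set against bovine collagen. Comparisons that share a group share its libraries.

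Counts of members past the test are set here beside the share of all genes in the main fit. The members were chosen with levels of these libraries in view, so nothing is read from these counts or from calls in alternative fits. A call was an adjusted p under 0.05 in the quasi-likelihood test of edgeR over all genes tested. For rat tail collagen against media, 1 member was called higher and 1 lower, where 29.7% of 19392 genes were called higher and 28.7% lower. Tsc22d2 was called higher there with replicate number as a block (log2 0.17) or without media 3 (0.26), and Tsc22d3 lower with every gene of 1 count kept (-0.25). Between rat tail and bovine collagen, 1 member was called higher and 2 lower, with 28.4% of genes called higher and 26.4% lower. In media against naive, 2 members were called lower, with 31.6% of 18610 genes called higher and 29.2% lower. Tsc22d4 was also called lower there with library totals (log2 -0.18), with DESeq2 (-0.16) and with all 12 libraries in one fit (-0.20), and Tsc22d1 in that last fit (-0.39) and without naive 3 (-0.49). Set against naive cells, rat tail collagen had 1 member called higher and 3 lower, with 36.5% of 19449 genes called higher and 35.4% lower.

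Bovine collagen against media gave few calls among all genes, 0.0206% of 19392 higher (4 genes) and 0% lower, and edgeR called 0 members there. At an unadjusted p under 0.05, 2 members were higher and 0 lower. Of the 19392 genes, 462 were higher and 348 lower at that limit (4.18% in both directions together). DESeq2 called 22 genes in all and 1 member, Tsc22d3, which was also called by edgeR when every gene with 1 count was kept.

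Levels of different genes were set side by side after scaling by exon length. This length merges the exons of all annotated transcripts of a gene. Long and short forms were not told apart, so shares and ratios between members are approximate. On that scale (TPM, from counts per kilobase of exon, with exon lengths of 8994, 11244, 4341 and 7509 bases for Tsc22d1 to Tsc22d4), Tsc22d3 held most of the family's RNA in naive cells and Tsc22d4 held most of it in every group of day 4. The share of Tsc22d3 in the summed TPM of the family was 22.7%, 23.3% and 19.0% in rat tail collagen, 31.4%, 31.3% and 34.0% in bovine collagen, 23.1%, 21.1% and 21.3% in media and 72.0%, 71.6% and 78.8% in naive cells. Tsc22d4 made up 57.6 ± 1.73% in rat tail collagen, 56.8 ± 1.80% in bovine collagen, 66.0 ± 0.303% in media and 19.9 ± 2.92% in naive cells (SD, n = 3 each).

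The ratio of Tsc22d3 to Tsc22d4 in TPM was 0.377 ± 0.0511 in rat tail collagen, 0.568 ± 0.0460 in bovine collagen, 0.331 ± 0.0178 in media and 3.80 ± 0.829 in naive cells (SD, n = 3 each). It was thus above 1 in naive cells and below 1 in each day 4 library, and bovine collagen lay above the other day 4 groups without overlap. Tsc22d1 made up 10.6 ± 0.215% of the family in rat tail collagen, 4.13 ± 0.0966% in bovine collagen, 4.19 ± 0.388% in media and 1.46 ± 0.526% in naive cells. Tsc22d2 held 10.2 ± 0.810% in rat tail collagen, 6.80 ± 0.291% in bovine collagen, 8.001 ± 0.958% in media and 4.50 ± 0.722% in naive cells. The summed TPM of the family was 42.1 ± 11.2, 52.0 ± 14.7, 54.3 ± 3.86 and 201 ± 32.1 in the same order. Shares of Tsc22d2 and Tsc22d4 were thus higher on day 4 than in naive cells although their own mean TPM was lower. Within day 4 the summed TPM was lowest in the rRNA-rich libraries. It was 40.1 and 32.1 in rat tail collagen 1 and 3 and 36.6 in bovine collagen 2. Rat tail collagen 2 had 54.2, within the range of media (49.9 to 57.2). Mean Tsc22d4 was lower in bovine collagen than in media in TPM (29.4 against 35.8) and not in CPM (149.7 against 147). Nothing is therefore read from differences in summed TPM between day 4 groups, and the part of rRNA was not tested. Among all genes with counts in a library, the TPM of Tsc22d3 stood at the 73.3 ± 3.06 percentile in rat tail collagen, 80.2 ± 1.98 in bovine collagen, 72.3 ± 1.37 in media and 97.5 ± 0.378 in naive cells.

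**Figure D3:**
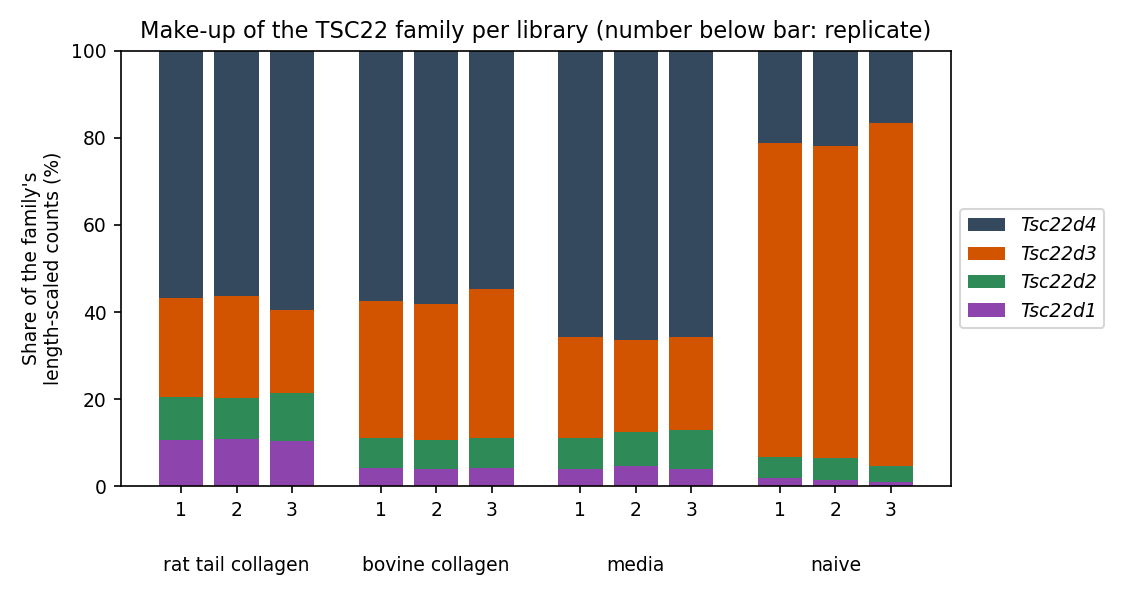
Share of each TSC22 member in the family's summed counts per kilobase of exon (%), one stacked bar per library with the replicate number below it, for rat tail collagen, bovine collagen, media and naive cells from left to right. Tsc22d3 holds 71.6% to 78.8% in naive libraries and 19.0% to 34.0% in the libraries of day 4, and the Tsc22d1 segment is widest in rat tail collagen.

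The 18 listed genes of the WNK pathway and of NRBP pseudokinases, the system that binds the long TSC22 forms, were then read in the same fit. Of these, 8 rose and 4 fell in rat tail collagen against media, where 29.7% of all genes were called higher and 28.7% lower. Wnk2 and Wnk3 passed the filter on low counts through the rat tail libraries alone, so they could only be called higher. Without them, a choice made after seeing the data, 6 of 16 rose and 4 fell, and the median log2 fold change was 0.0084, against -0.01 over all genes tested. Slc12a2, the sodium-potassium-chloride cotransporter NKCC1 that WNK signalling activates, rose to 56.2 ± 1.66 CPM in rat tail collagen, against 25.7 ± 1.61 in media (log2 1.12, adjusted p = 4.56e-06). Slc12a4, the potassium-chloride cotransporter KCC1, rose to 49.3 ± 2.11 CPM, against 28.2 ± 0.861 in media (log2 0.79, adjusted p = 2.08e-06).

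The NRBP pseudokinases went opposite ways in that comparison. Nrbp2 rose to 8.57 ± 0.759 CPM in rat tail collagen, against 3.05 ± 0.375 in media (log2 1.48, adjusted p = 8.23e-06), while Nrbp1 fell to 50.04 ± 1.43 CPM, against 59.6 ± 1.47 in media (log2 -0.26, adjusted p = 0.00279). Stk39, the kinase SPAK that WNK kinases phosphorylate, rose by 0.67 (log2, adjusted p = 8.46e-05), and Wnk1 by 0.53 (adjusted p = 0.00281). For Oxsr1, the SPAK homologue OSR1, the value was 0.09 (adjusted p = 0.254). Leaving out rat tail collagen 1 and 3 and bovine collagen 2 keeps a single rat tail library. That library is assumed to vary like the other groups. There Nrbp1 (log2 -0.29) and Wnk1 (log2 0.57) lost the call without a smaller fold change. In that fit edgeR called fewer genes of the list lower, as it did over all genes, and Slc12a2, Slc12a4, Nrbp2 and Stk39 still higher. Nrbp1 also lost its call with library totals as the scale (log2 -0.21, adjusted p = 0.0993), where 2 genes of the list fell.

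**Figure D4:**
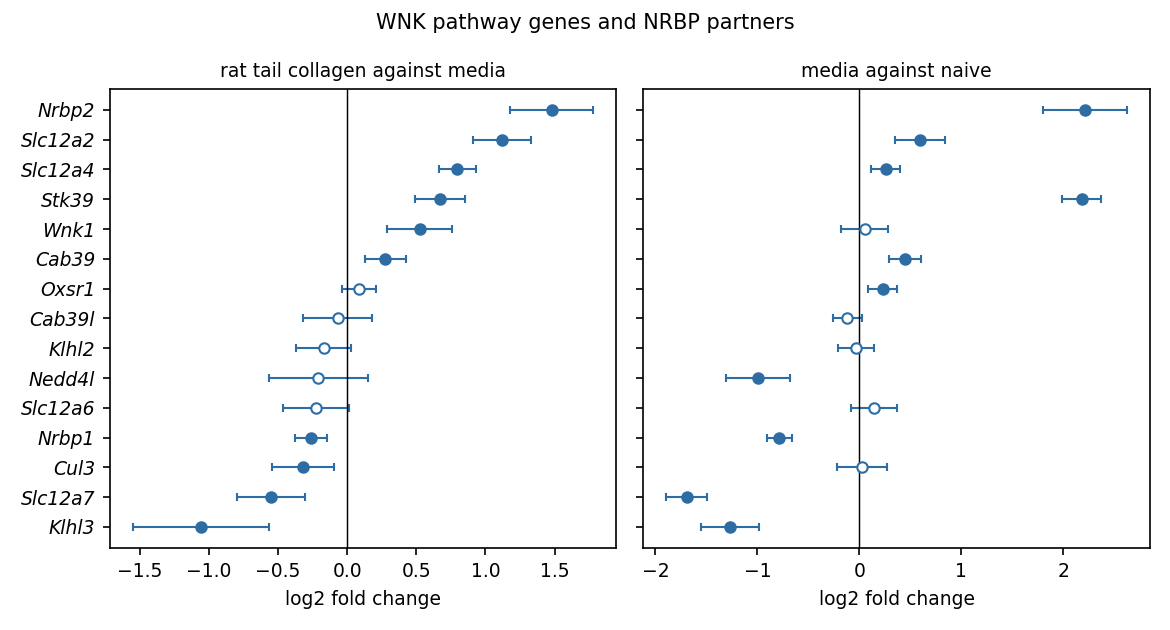
Log2 fold changes with 95% intervals of the 15 genes of the WNK and NRBP list with 5 CPM or more in rat tail collagen or media, in rat tail collagen against media (left) and media against naive (right), with filled points for an adjusted p under 0.05 and open points for the rest. Slc12a2 lies at 1.12 and Nrbp1 at -0.26 on the left, and Stk39 lies at 2.18 and Slc12a7 at -1.69 on the right.

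In media against naive, 6 of 16 tested genes of this list rose and 4 fell (median log2 0.04, against 0.00 over all genes), where 31.6% of all genes were called higher and 29.2% lower. Stk39 rose to 62.5 ± 5.07 CPM in media, against 14.4 ± 1.49 in naive cells (log2 2.18, adjusted p = 1.65e-07). The potassium-chloride cotransporter gene Slc12a7 fell to 152 ± 18.1 CPM, against 513 ± 29.7 in naive cells (log2 -1.69, adjusted p = 1.05e-06), and Nrbp1 fell to 59.6 ± 1.47 CPM, against 107 ± 3.36 (log2 -0.78, adjusted p = 7.83e-06). Klhl3, the adaptor of the ubiquitin ligase that degrades WNK kinases, fell by 1.27 (log2, adjusted p = 6.43e-05). Oxsr1 rose by 0.23 (adjusted p = 0.0201) and lost the call when any naive library was left out, with adjusted p from 0.0543 to 0.0677. In rat tail against bovine collagen 8 of 18 genes rose and 5 fell, Wnk2 and Wnk3 among those that rose, where 28.4% of all genes were called higher and 26.4% lower. There 2 fell with library totals, where 3221 of all genes were called lower, against 5118 in the main fit. Fewer genes of the list were called without the rRNA-rich libraries, in a fit with a single rat tail library. Calls over all genes were fewer there as well. Set against naive cells, rat tail collagen had 9 genes that rose, again with Wnk2 and Wnk3, and 6 that fell, where 36.5% of all genes were called higher and 35.4% lower.

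The glucocorticoid receptor and 18 genes of its response were read beside Tsc22d3, a known target of that receptor. In media against naive, where Tsc22d3 was 12.6-fold lower, 5 of 18 tested genes of the list rose and 10 fell, where 31.6% of all genes were called higher and 29.2% lower. The 5 include Mt2, which passed the filter through the media libraries alone, and without it the median log2 fold change was -0.63. The number that rose was 3 without naive 3, media 1 or media 2. Dusp1, a MAP kinase phosphatase, fell to 12.9 ± 0.883 CPM in media, against 152 ± 29.4 in naive cells (log2 -3.49, adjusted p = 7.87e-08). Hsd11b1, which regenerates active glucocorticoid, fell by 2.38 (adjusted p = 9.19e-08) and the clock gene Per1 by 1.61 (adjusted p = 9.27e-07), and the kinase gene Sgk1 also fell (log2 -1.5, adjusted p = 4.52e-07). Fkbp5, a co-chaperone of the receptor and one of its most responsive targets, went the other way and rose to 155 ± 15.2 CPM in media, against 59.2 ± 3.38 in naive cells (log2 1.45, adjusted p = 1.37e-06).

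The receptor gene Nr3c1 itself had 123 ± 3.80 CPM in media and 141 ± 8.10 in naive cells (log2 -0.14, adjusted p = 0.144), and without naive 3 the difference was called (log2 -0.20, adjusted p = 0.0395). Klf9 had a log2 fold change of 0.39 (adjusted p = 0.0337) and lost the call with library totals as the scale and when naive 2 or 3 or any media library was left out, with adjusted p from 0.0524 to 0.138.

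Of the 19 genes, 6 rose and 6 fell in rat tail collagen against media, where 29.7% of all genes were called higher and 28.7% lower. The 6 that rose include Ptgds, which passed the filter through the rat tail libraries alone and could only be called higher, and without it the median log2 fold change was 0.04. Klf9, Sgk1 and Per1 rose by 0.89 (adjusted p = 3.26e-05), 0.78 (adjusted p = 6.49e-05) and 0.73 (adjusted p = 0.000146) on the log2 scale. The mRNA decay factor gene Zfp36 fell to 25.9 ± 3.53 CPM in rat tail collagen, against 92.1 ± 8.58 in media (log2 -1.84, adjusted p = 1.1e-07), and Hsd11b1 fell by 1.49 (adjusted p = 1.01e-05). Fkbp5 fell by 0.54 (adjusted p = 0.00252), a call that did not hold without the rRNA-rich libraries (adjusted p = 0.112). Nr3c1 had 129.8 ± 18.7 CPM in the rat tail gel, against 123 ± 3.80 in media (log2 0.06, adjusted p = 0.580). In rat tail against bovine collagen, where Tsc22d3 was 2.00-fold lower, 6 rose, Ptgds among them, and 5 fell (28.4% and 26.4% of all genes).

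FOXO factors and their targets, the other known input to Tsc22d3 in lymphocytes, gave 2 genes that rose and 9 that fell of 18 in media against naive (median log2 -0.21), where 31.6% of all genes were called higher and 29.2% lower. Without media 2 the number that fell was 5. The antiproliferative gene Btg1 fell to 369.5 ± 52.8 CPM in media, against 969.6 ± 39.1 in naive cells (log2 -1.33, adjusted p = 8.45e-06), and the insulin receptor substrate gene Irs2 fell by 1.49 (adjusted p = 1.47e-06). The genes that rose were Gabarapl1, an autophagy gene (log2 3.35, adjusted p = 3.44e-07), and Ccng2, which encodes cyclin G2 (log2 1.53, adjusted p = 2.65e-07). Foxo1 fell by 0.34 (adjusted p = 0.0117), a call that was lost without media 2 (adjusted p = 0.0551).

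Of these 18 genes, 5 rose and 9 fell in rat tail collagen against media (median log2 -0.24). There 29.7% of all genes were called higher and 28.7% lower. Without the 3 rRNA-rich libraries fewer rose, as did fewer of all genes, in a fit with a single rat tail library. Foxo1 fell to 149 ± 10.7 CPM in rat tail collagen, against 250.3 ± 29.99 in media (log2 -0.75, adjusted p = 0.000188). The sphingosine phosphate receptor gene S1pr1 fell by 1.75 (adjusted p = 2.04e-08) and the interleukin 7 receptor gene Il7r by 1.46 (adjusted p = 7.34e-08) on the log2 scale. Between the gels 5 genes rose and 11 fell (28.4% and 26.4% of all genes). Fewer rose without the rRNA-rich libraries, where fewer of all genes rose too.

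Of 12 genes for proteins that GILZ binds, 3 rose and 6 fell in media against naive, where 31.6% of all genes were called higher and 29.2% lower. Spi1, which fell, passed the filter through the naive libraries alone, and without it the median log2 fold change was -0.11. The AP-1 genes Fos and Jun fell to 0.977 ± 0.259 and 32.5 ± 9.08 CPM in media, against 330 ± 117 and 590 ± 167 CPM in naive cells (adjusted p = 6.61e-07 and 3.53e-06). Rela, which encodes the NF-kappaB subunit p65, fell by 0.76 on the log2 scale (adjusted p = 4.32e-05). In rat tail collagen against media 5 of 11 rose and 3 fell, where 29.7% of all genes were called higher and 28.7% lower. Without the 3 rRNA-rich libraries fewer rose, as did fewer of all genes, in a fit with a single rat tail library. Examples with all libraries kept were Jun up by 1.30 (adjusted p = 0.000313), Mdm2 up by 0.46 (adjusted p = 7.79e-05) and the Ras gene Nras down by 0.64 (adjusted p = 1.06e-05).

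In bovine collagen against media, the comparison in which Tsc22d3 stood 1.74-fold higher, edgeR called 1 gene on the 6 lists together. Over all 19392 genes tested it called 4 higher (0.0206%) and 0 lower. DESeq2 called 22 genes in all, with 1 gene of the glucocorticoid list among those it called higher. The list gene that edgeR called was Fos, with 6.77 ± 1.15 CPM in bovine collagen, against 0.977 ± 0.259 in media (log2 2.79, adjusted p = 0.000978). Without the 3 rRNA-rich libraries its log2 fold change was 2.65 (adjusted p = 0.130).

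TGF-beta receptors, SMADs and response genes were read beside Tsc22d1. In rat tail collagen against media, where Tsc22d1 was 2.23-fold higher, 9 of 18 rose and 8 fell. The median log2 fold change was 0.22, and 29.7% of all genes were called higher and 28.7% lower. Without the 3 rRNA-rich libraries fewer of the list fell, as did fewer of all genes, in a fit with a single rat tail library. The feedback genes Skil and Pmepa1 rose to 249.9 ± 8.35 and 44.1 ± 7.03 CPM in rat tail collagen, against 86.4 ± 8.50 and 9.33 ± 1.75 in media (adjusted p = 3.63e-07 and 6.45e-07). The receptor genes Tgfbr1 and Tgfbr2 fell by 1.08 (adjusted p = 1.35e-05) and 0.95 (adjusted p = 6.99e-07) on the log2 scale, and the signal transducer gene Smad3 by 0.93 (adjusted p = 4.22e-07). In media against naive 1 gene of the list rose (2 with a replicate block, with every gene of 1 count, or without naive 1 or media 3) and 14 fell, where 31.6% of all genes were called higher and 29.2% lower. Those that fell include Id1, which passed the filter through the naive libraries alone, and Smurf2 by 1.64 (adjusted p = 1.37e-07), Ski by 1.63 (adjusted p = 3.93e-07) and Smad7 by 1.45 (adjusted p = 2.21e-06).

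The response to tonicity was read because the TSC22, NRBP and WNK proteins take part in volume control. In rat tail collagen against media all 9 tested genes of the list rose, where 29.7% of all genes were called higher, and all 9 rose against bovine collagen as well, with the same rat tail libraries in both. Slc6a12 passed the filter through the rat tail libraries alone, and the other 8 had a median log2 fold change of 3.14 against media. Nfat5, the transcription factor of this response, rose to 612 ± 31.2 CPM in rat tail collagen, against 76.6 ± 12.1 in media (log2 2.99, adjusted p = 9.09e-09). The myo-inositol transporter gene Slc5a3 rose to 403 ± 71.7 CPM, against 18.5 ± 2.33 in media (log2 4.44, adjusted p = 3.06e-09), and the chaperone gene Hspa4l to 321 ± 55.1 CPM, against 32.7 ± 0.910 (log2 3.29, adjusted p = 3.29e-09). This list was written with the behaviour of its genes in these libraries known, so its direction is no independent evidence. In media against naive 2 of 9 rose and 4 fell (31.6% and 29.2% of all genes), Aqp1 among the 4 through the naive libraries alone.

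Other genes varied across the 12 libraries much as a member did, by Pearson's r of log2 CPM over 10513 genes. These r values rest on 4 groups of 3 libraries, so they mostly compare 4 group levels, and they are a description. Nearest to Tsc22d1 were Agap1 (r = 0.973), Tfr2 (0.972), Ltbp1 (0.970) and Jup (0.968). They encode an Arf GTPase regulator, a transferrin receptor, a latent TGF-beta binding protein and the junction protein plakoglobin. Ltbp1 had 20.99 ± 5.84 CPM in rat tail collagen, 0.215 ± 0.103 in bovine collagen, 0.131 ± 0.0353 in media and 0.794 ± 0.678 in naive cells, a far wider range than that of Tsc22d1.

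Nearest to Tsc22d2 were Pdlim5 (r = 0.993), Plekha1 (0.992), Ccdc88c (0.991) and Smad7 (0.991), of which Smad7 is the inhibitory SMAD. Smad7 had 88.4 ± 4.33 CPM in rat tail collagen, 79.8 ± 11.99 in bovine collagen, 77.05 ± 9.35 in media and 219.6 ± 13.2 in naive cells. Nearest to Tsc22d3 were Tspyl1 (0.988), Klhl21 (0.988), Smpd2 (0.987) and Cipc (0.987), an inhibitor of the circadian factor CLOCK. Cipc had 21.9 ± 0.691 CPM in rat tail collagen, 25.1 ± 1.104 in bovine collagen, 23.1 ± 1.39 in media and 46.4 ± 1.76 in naive cells, a narrower range than that of Tsc22d3. Nearest to Tsc22d4 were Dse (0.995), Ehd3 (0.994), Fbxl14 (0.990) and Tpst2 (0.990), of which Dse encodes dermatan sulfate epimerase. Between members r was 0.91 for Tsc22d2 with Tsc22d3, 0.76 for Tsc22d3 with Tsc22d4, 0.53 for Tsc22d2 with Tsc22d4, 0.04 for Tsc22d1 with Tsc22d2, -0.22 for Tsc22d1 with Tsc22d3 and -0.74 for Tsc22d1 with Tsc22d4. Over the 9 day 4 libraries alone the first gene was Slc6a12 for Tsc22d1 (0.997), Slc2a6 for Tsc22d2 (0.955), Ssh1 for Tsc22d3 (0.922) and Ubald2 for Tsc22d4 (0.997). Of the 4 genes named above as nearest to each member, 0 were among its first 4 in those libraries.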

How the data were processed

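RNA of 12 libraries was depleted of ribosomal RNA and treated with DNase, and 150 ng went into each library, per the labels' protocols. A single table of read counts per gene symbol was deposited by the authors, and its whole numbers entered as counts with no change. The tools featureCounts, HISAT2, Picard, SAMtools, MultiQC and FastQC and the builds mm10 and GRCm38 are named, per the submitters' processing notes. No source used here gives versions, the strand setting or the annotation, so antisense reads could not be told apart. Columns were matched to groups through library names in the header and sample labels.

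The analysis ran in R 4.3.3 with edgeR 4.0.16 and limma 3.58.1: filterByExpr by group, TMM factors, robust quasi-likelihood F tests, and Benjamini-Hochberg adjustment over all genes tested with a threshold of 0.05. The 9 day 4 libraries shared 1 fit, and the comparisons with naive cells used 6 libraries each. CPM used 1 TMM scale over the 12 libraries. TPM used merged exon lengths from GENCODE M21, known for symbols that hold all but 2.78% of counts. Sequences came from the same release. The steps were tested on simulated data with known changes.

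Members and lists were chosen with earlier results of these data known. Besides the 4 members, named genes were up to 4 per list and comparison with the smallest adjusted p at 5 CPM or more, 13 genes named for their role, and the 4 genes of highest r with each member. Of these the text gives those for which alternatives were computed, and the results of some are not reported here. Between groups, libraries of equal replicate number correlated above 0.1 in 5 of 18 cases (-0.029 to 0.449), after group means were removed. However, 11 of 12 libraries correlated best with their own number, so a pairing is possible. The labels state none, so the main fit had no block, and a block was run as an alternative. Alternatives were RLE factors, library totals, DESeq2 1.42.0, 2 other filters on low counts, other sets of libraries, a replicate block, a prior count of 0.5 and leaving out each library. Counting lists without genes that passed the filter through 1 group alone was chosen after seeing the data.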

Additional observations from a re-analysis of the deposited data

How the results depend on the processing

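All members kept the sign of their log2 fold change under every alternative run, except Tsc22d2 (10 of 15 alternatives) and Tsc22d4 (13 of 15) in bovine collagen against media, where both lay near 0. Tsc22d4 there was -0.0664 with library totals. In rat tail against bovine collagen library totals gave 1.08 for Tsc22d1 and -0.26 for Tsc22d4, and a filter of 1 CPM in 3 libraries gave -0.35 for Tsc22d4. In rat tail collagen against naive, Tsc22d4 was -0.55 with RLE factors, -0.51 with library totals, -0.55 with DESeq2, -0.54 with the CPM filter, -0.55 without the 3 libraries of high rRNA share, and -0.60 to -0.55 with 1 library left out. In media against naive 2 members were called in the main fit, where 31.6% of all genes were called higher and 29.2% lower. All 12 libraries in one fit gave 4 members, and library totals, DESeq2 or leaving out naive replicate 3 gave 3 each. The members were chosen with these levels in view, so nothing is read from their counts. The count of genes called in bovine collagen against media, 4, was 9 with library totals, 22 with DESeq2, 39 with every gene of 1 count, 2 with only the 6 libraries, 1 without the libraries of high rRNA share and 2 to 5 with 1 library left out. With 1 library left out, the lowest count, 2, was reached without media replicate 2. Replicate number as a block gave 7 genes there, and 11 of 12 libraries correlated best with their own number, a hint from the data and not from the design. Without the libraries of high rRNA share, 6726 genes were called in rat tail collagen against media (11319 with all) and 5485 in rat tail against bovine collagen (10617 with all), with fewer libraries in the fit. Nr3c1 in rat tail collagen against media ranged from -0.0513 (without rat tail collagen 1) to 0.15 with 1 library left out. Of the values of other named genes, 1789 stayed on their side of the threshold, 24 lost a call and 1 gained one, and the causes were not tested.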
